A study of Canis lupus familiaris with 33 samples.

Results

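Across 11 tissues of adult beagles, 1305 autosomal regions carried a peak of methylated DNA in each of 9 non-brain tissues (stomach, colon, liver, pancreas, kidney, lung, spleen, ovary and mammary gland) and in neither cerebellum nor cerebrum. They are called brain-negative regions here. They were chosen by merging the peaks of all 11 lists on chromosomes 1 to 38 wherever they overlapped by 1 base or more, which gave 450791 union regions, so they were 0.289% of all union regions. The values that chose them are the presence and absence of peaks, and these are given below as description without a test.

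Methylation was measured by MBD-seq, in which sheared DNA is captured on beads carrying a methyl-CpG-binding domain, and the fragments eluted at high salt are sequenced. Each tissue had 2 MBD libraries and 1 input library of uncaptured DNA, from healthy dogs given no experimental treatment. Cerebellum, cerebrum, kidney, liver, lung, pancreas and spleen had 1 library labelled female and 1 labelled male, while colon, mammary gland, ovary and stomach had 2 labelled female. The input was titled jj8 for both brain tissues, colon, liver, lung, spleen and stomach, and came from another animal for the other 4. Inputs titled jj8 were labelled female, although the MBD libraries of that animal were labelled male. The protocol names 3 dogs, 1 male and 2 female, while the titles carry 4 animal identifiers. Ages were not used here. A single peak list stood for the 2 MBD libraries of each tissue, so each tissue contributed 1 list and no spread between animals can be computed. The number of reads behind each list is unknown.

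Methylation of cytosine in CpG dinucleotides is copied at cell division by the maintenance methyltransferase DNMT1 and covers most of a mammalian genome outside CpG islands. Tissues differ mainly at a small part of the genome, where regulatory elements used by a tissue tend to lose the mark in that tissue. Brain samples mix neurons with glia, and the cerebellum is dominated by granule neurons. The capture responds to the density of methylated CpGs in a fragment, so a missing peak is a signal below the authors' threshold and not proof of unmethylated DNA.

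Both brain lists missed the same regions often. Of the 137413 autosomal regions with a peak in all 9 non-brain tissues, 14457 had no cerebellum peak (10.5%), 2733 had no cerebrum peak (1.99%) and 1305 had neither (0.95%). Seen from the cerebrum, 47.7% of the regions that it missed were also missed by the cerebellum. Where the cerebrum did have a peak, the cerebellum missed 9.77%. In the other direction, 9.03% of the regions missed by the cerebellum were also missed by the cerebrum, against 1.16% where the cerebellum had a peak. The cerebellum list was among the longest, with 359065 peaks, and the cerebrum list held 311374, so neither brain list was among the shortest. The reverse pattern, a peak in both brain tissues and in none of the other 9, was seen in 4385 of the 450791 union regions. That pattern was not counted for other pairs of lists, so the numbers of regions in either direction are not compared.

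Any pair of lists misses some regions together, so the brain pair was set beside the other pairs. Among the 55 pairs, the number of regions that lacked exactly that pair ran from 93 to 1338 with a median of 380. The brain pair ranked second, after cerebellum and ovary with 1338 regions and before colon and spleen with 986. The odds ratio of co-absence, which compares joint absence with the absences of each list, had a log2 value of 3.08 in the brain pair (95% interval 2.97 to 3.19) and a median of 2.65 over the pairs. It ranked 9 among 55, and the highest value, 4.13, belonged to pancreas and stomach. Intervals on counts of regions cover counting error only.

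Missing peaks were more frequent in weak regions, as given below for the brain lists, so pairs were also compared at like strength. When odds ratios were pooled within 5 equal classes of the mean fold over the 9 lists outside the pair, the log2 value of the brain pair was 2.27 and the median over pairs fell from 2.65 to 1.02. The brain pair then ranked first of 55, followed by pancreas and stomach at 2.12 and colon and stomach at 1.92. With 5 equal classes of region width added it was 2.31, again the highest of the 55 pairs. For the cerebellum, its pooled values with the 9 non-brain lists lay between −0.33 (lung) and 1.26 (ovary). For the cerebrum they lay between 0.60 (stomach) and 1.70 (ovary). Thus each brain list had its highest pooled value with the other brain list. All these comparisons share the same lists and carry no test. The pooled values have no intervals and were not repeated with other list thresholds or sizes, so small differences in rank are not settled.

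**Figure D1:**
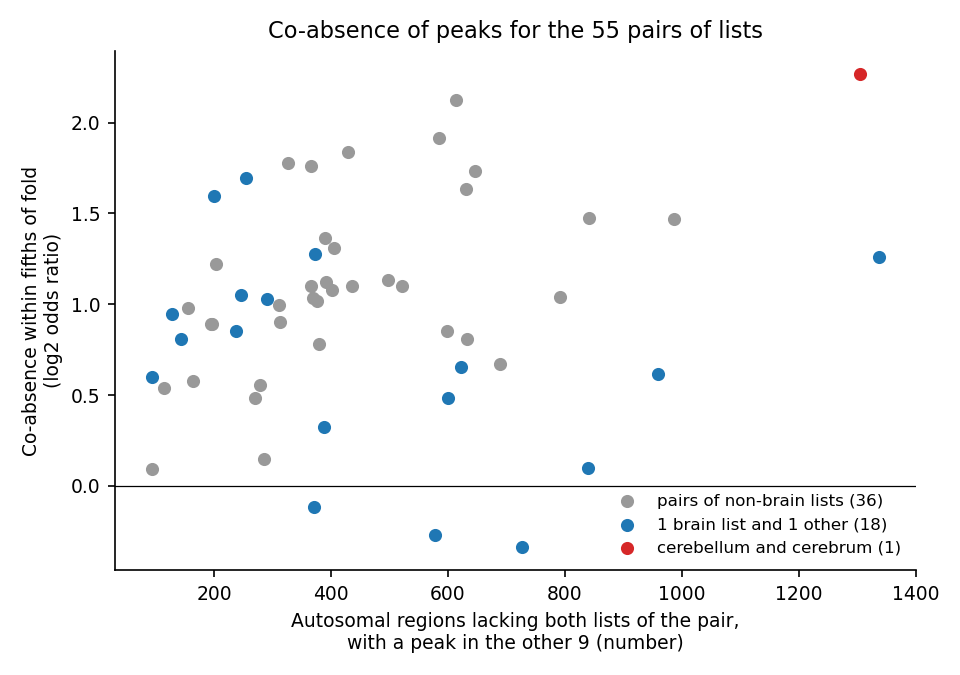
Each point is 1 of the 55 pairs of lists. The x axis gives the number of autosomal regions that lack both lists of the pair and have a peak in the other 9, and the y axis gives the log2 odds ratio of co-absence pooled within 5 equal classes of mean fold. The brain pair (red) lies at 1305 regions and 2.27, the highest point on the y axis. Cerebellum and ovary lie farthest right, at 1338.

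Strength is given below as the relative fold, the authors' fold enrichment of the highest peak of a list in the region divided by the median fold of that list, on a log2 scale. A value of 0 is a peak of ordinary height for its tissue. Brain-negative regions were concentrated among weak regions. Of the 137413 regions with a peak in the 9 non-brain tissues, divided into 5 equal classes of mean relative fold, the weakest class held 883 of the 1305 (3.21% of that class), the next 326 (1.19%), the third 85 (0.309%) and the fourth 11 (0.0400%). The strongest class held 0 of its 27483 regions. The cerebellum by itself still missed 0.746% of that strongest class and 5.96% of the fourth, whereas the cerebrum missed 0 and 0.0801%. Strong regions that the cerebellum missed thus nearly always had a cerebrum peak. Within these classes the log2 odds ratio of brain co-absence was 2.14 in the weakest (upper 95% bound 2.28), 2.47 in the second (2.25 to 2.69) and 2.64 in the third (2.23 to 3.06). It was 3.99 (2.78 to 5.20) in the fourth, where it rested on 11 regions.

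**Figure D2:**
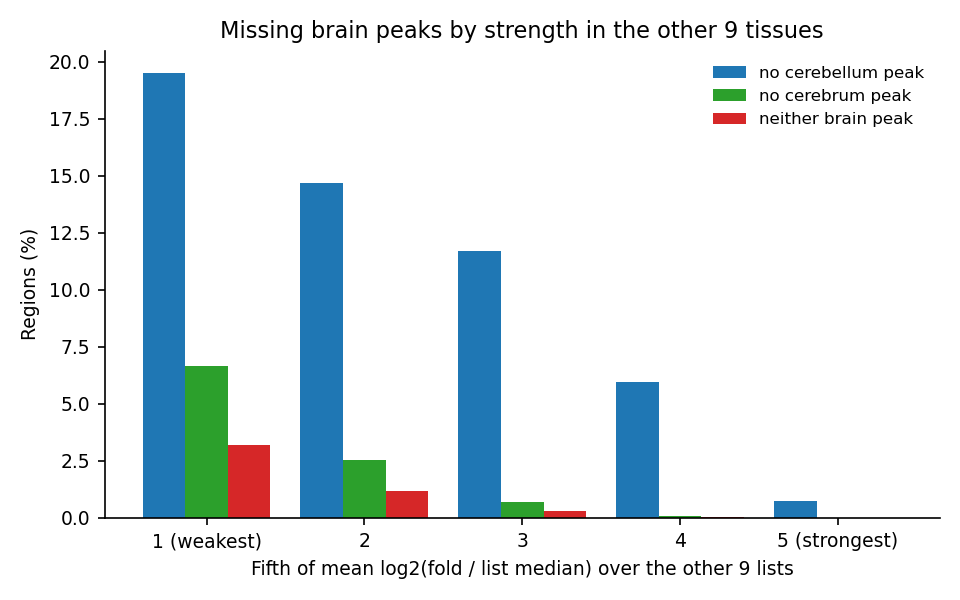
Bars give the percent of regions with a peak in all 9 non-brain tissues that have no cerebellum peak (blue), no cerebrum peak (green) or neither (red), for 5 equal classes of the mean log2 relative fold over the 9 lists. The red bars fall from 3.21% in the weakest class to 0 in the strongest, and the blue bars exceed the green bars in every class.

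In the 9 tissues that carried them, brain-negative regions had peaks slightly below the list median. The mean of the 9 medians was −0.15 with all peaks and −0.0066 with equal list sizes, where other regions can meet the rule. With only the peaks above the median fold of each list it was 0.69, a setting that removes lower values by construction. That value comes from mostly other regions, since only 11 of the 1305 had all 9 tissues above their list median. It does not give the direction in the 1305. In these, the median log2 relative fold was −0.27 in pancreas, −0.22 in colon, −0.21 in stomach and in mammary gland, −0.14 in lung, −0.12 in spleen, −0.11 in kidney, −0.06 in ovary and −0.02 in liver. The middle 50% of the regions overlapped between all 9 tissues, running from −0.57 to 0.07 in pancreas and from −0.35 to 0.33 in liver, so no neighbours in this order were separated by more than their spread. As plain folds, the medians ran from 5.62 in lung to 7.52 in stomach. The authors' −log10 p-value of the same peaks had medians from 16.9 in lung to 24.6 in stomach. Regions with a peak in all 11 tissues were stronger in every one of the 9 lists, with median log2 relative folds from 0.51 in pancreas to 0.62 in kidney.

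A closer comparison used the 23637 regions that also lacked exactly 2 of the 11 lists, but not both brain lists. Brain-negative regions had the higher median relative fold in 8 of the 9 tissues, by 0.23 in colon, 0.22 in liver, 0.19 in stomach and 0.04 in kidney, and the difference was −0.03 in ovary. The mean difference was 0.13 ± 0.08 (SD, n = 9 lists). Their highest peaks were also wider in 9 of 9 tissues, with a mean difference of 0.10 ± 0.03 on the log2 scale (SD, n = 9 lists). The rule asks for a peak in each of the 9 lists, while every comparison region lacks at least 1 of them, so these differences are not independent of how the regions were chosen and carry no test. The 9 lists also describe the same regions and share animals.

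The size of the differences depended on the comparison regions. Set against regions lacking cerebellum and 1 non-brain tissue, a comparison chosen after the data were seen, the mean difference in log2 relative fold was 0.03 and 6 of 9 tissues were higher. The difference in peak width was then −0.02, with 3 of 9 tissues higher. Against regions lacking cerebrum and 1 non-brain tissue, the fold difference was 0.12 with 8 of 9 tissues higher, and the peak width difference was 0.13 with 9 of 9 higher. A higher fold was thus not shown to be particular to regions missed by both brain tissues.

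**Figure D3:**
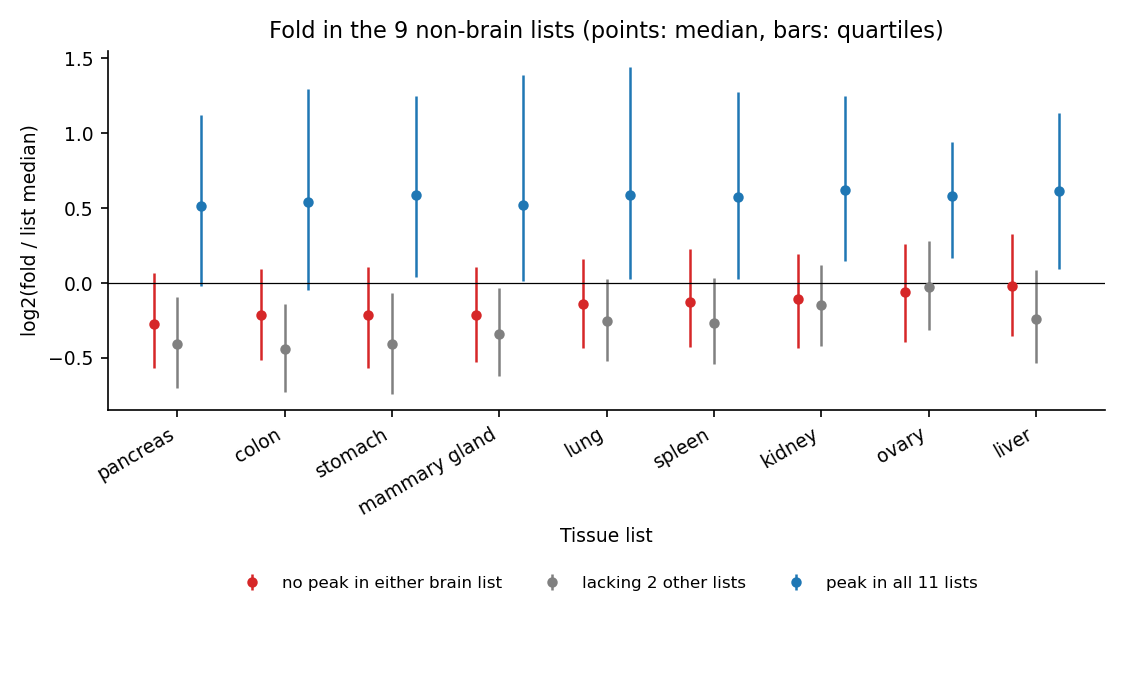
The y axis gives the log2 of fold over list median, and the x axis the 9 non-brain tissues in order of the median in brain-negative regions (red). Points are medians and bars run from the lower to the upper quartile. Brain-negative regions lie above regions lacking 2 other lists (grey) in every tissue but ovary, and below regions with a peak in all 11 lists (blue) throughout.

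Single brain-negative regions differed between tissues about as much as regions common to the 11 tissues. Within a region, the range from the lowest to the highest tissue had a median of 1.19 on the log2 scale, against 1.21 in regions with a peak in all 11 tissues. Liver was the highest tissue in 294 of the 1305 regions, ovary in 249 and spleen in 186, while pancreas was the lowest in 187, colon in 183 and mammary gland in 180. Such counts were not made for other regions. In regions lacking 2 other lists, ovary had the highest median of the 9 tissues (−0.02) and colon the lowest (−0.44). All 9 tissues were above their list median in 11 regions (0.843%), and all 9 were below it in 97 (7.43%). Among regions with a peak in all 11 lists, 44.9% were above the median in all 9 tissues. Across the 1305 regions, Pearson's r of relative fold between pairs of tissues ran from 0.033 (lung and ovary) to 0.477 (colon and stomach), with a median of 0.231 over 36 pairs. In regions with a peak in all 11 lists, the median r was 0.753 (0.471 to 0.844). Those regions span a wider range of fold, which by itself raises r. In colon, for example, their quartiles were −0.04 and 1.30, against −0.51 and 0.09 in brain-negative regions. No r was computed for regions of like strength, so poorer agreement between tissues is not shown. The regions of 1 list share its libraries, so these r values are descriptions.

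The 5 brain-negative regions of highest mean relative fold were mostly wide, and 4 of them exceeded 541 bases, the upper quartile of all. The first, on chromosome 3 at 15712639 to 15714260 (1622 bases), had folds of 22.7 in colon, 10.4 in kidney, 7.12 in liver, 16.8 in lung, 23.9 in mammary gland, 9.84 in ovary, 16.0 in pancreas, 8.65 in spleen and 17.8 in stomach. Mammary gland reached 3.46 times its list median there, while liver sat at 0.996 times. The nearest cerebellum peak was 6546 bases away and the nearest cerebrum peak 4310. A region on chromosome 5 at 56692262 to 56693338 was more uneven still. Its folds were 24.6 in colon, 23.6 in mammary gland, 23.4 in stomach, 19.0 in spleen, 14.0 in liver, 10.6 in ovary, 10.3 in lung, 6.10 in pancreas and 5.41 in kidney. Pancreas and kidney were below their list medians there, at 0.768 and 0.825 times. Its brain neighbours were close, with a cerebrum peak 206 bases away and a cerebellum peak 298.

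Another strong region lay on chromosome 1 at 41613505 to 41614528 and was above the list median in all 9 tissues. Its fold ran from 7.71 in ovary to 19.6 in colon with a median of 16.9, and relative to the list it was highest in spleen (2.80 times). No cerebellum peak lay within 6333 bases of it and no cerebrum peak within 16020. On chromosome 13 at 22880031 to 22880497 the folds ran from 6.50 in mammary gland to 16.1 in stomach with a median of 14.8. Every tissue but mammary gland was at 1.72 times its list median or more. The fifth region, on chromosome 18 at 34287551 to 34288414, ran from 6.63 in kidney to 21.6 in colon with a median of 12.5, and all 9 tissues were above their list median. These coordinates are in CanFam3.1, the build in the submitters' processing notes. The genes at these positions and their sequences were not analysed here.

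**Figure D4:**
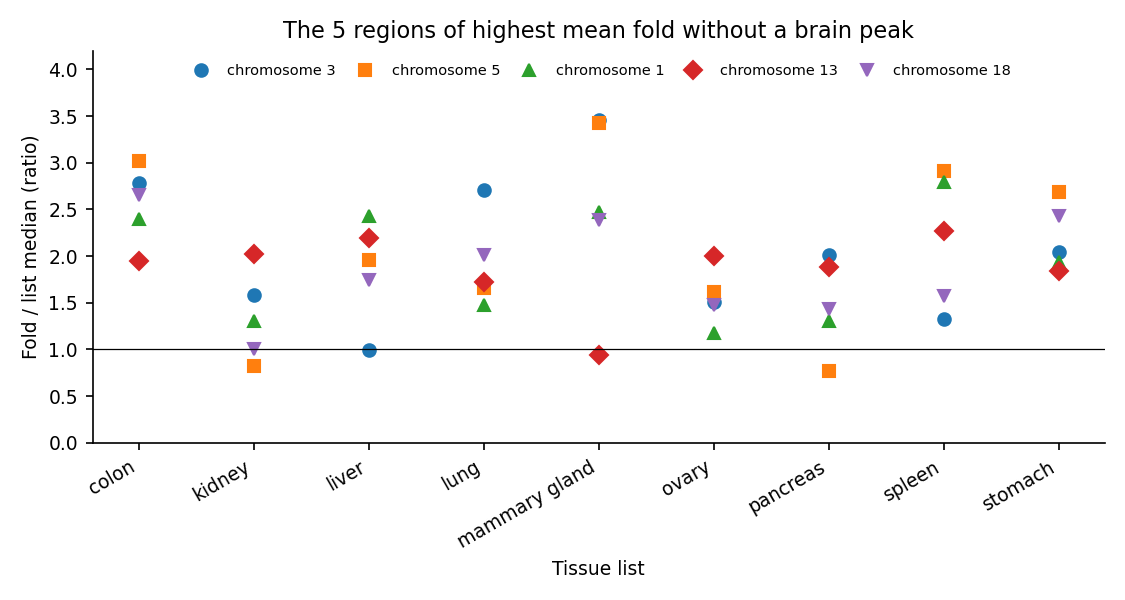
Each marker is the fold of 1 region divided by the list median, for the 5 brain-negative regions of highest mean relative fold, in each of the 9 non-brain tissues. The line marks a ratio of 1. The chromosome 3 and chromosome 5 regions reach 3.46 and 3.43 in mammary gland, while 4 markers lie below the line, in kidney, liver, mammary gland and pancreas.

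Brain-negative regions were short. Their median width was 388 bases, with 50% between 335 and 541 and a range of 266 to 1843. With only the peaks above the median fold of each list, the regions meeting the rule were mostly other ones and had a median width of 785 bases. Together the 1305 brain-negative regions covered 0.625 Mb. In 92.9% of them no non-brain list had more than 1 peak. Regions lacking 2 other lists were of similar width, with a median of 363 bases, and regions lacking the cerebrum alone had 361. Regions that lacked the cerebellum alone were wider, at 554, and those with a peak in all 11 tissues had a median of 798. The widest brain-negative region, on chromosome 9 at 59348224 to 59350066, had ordinary peaks, from 5.39 in kidney to 9.21 in pancreas. The second widest, 1765 bases on chromosome 5 at 78703671 to 78705435, ran from 3.62 in spleen to 12.3 in colon. The third widest was the strong chromosome 3 region of 1622 bases described above. Spearman's rho of width with mean relative fold was 0.137 across the 1305 regions. Over all regions with a peak in the 9 non-brain tissues, median width was 448, 459, 674, 1033 and 1934 bases from the weakest to the strongest class.

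The rule asks for the absence of a brain peak inside the region, and brain peaks were often near its edges. The nearest brain peak lay at a median of 1547 bases, with 50% of the regions between 557 and 4611. It was within 1 kb in 493 regions (37.8%) and beyond 10 kb in 139 (10.7%). Just inside the rule, a region on chromosome 4 at 29080506 to 29080956 had a cerebellum peak 52 bases away and a cerebrum peak 249 bases away. Just outside it, a region of 2053 bases on chromosome 5 at 76631933 to 76633985 had a single cerebrum peak of 219 bases and fold 3.03 that covered 10.7% of the region. When no brain peak was allowed within 1 kb, 812 regions remained. With only the peaks above the median fold of each list, 788 regions met the rule, nearly all of them outside the 1305.

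Brain peaks were also fewer in the neighbourhood, which the rule did not use. Of the 2610 next union regions on both sides, 37.9% had a cerebellum peak and 51.8% a cerebrum peak, while the 9 other tissues had a peak in 52.5% (pancreas) to 77.1% (ovary). Next to regions lacking 2 other lists, the cerebellum had a peak in 66.1% and the cerebrum in 61.1%. The difference was −28.3 percentage points in cerebellum and −9.37 in cerebrum, and it was between 1.70 (kidney) and 9.15 (spleen) in the other 9. Leaving out next regions that were themselves brain-negative (64 of 2610) gave −27.3 and −8.07. A deficit relative to the other 9 lists was not limited to the brain pair. In the sets of all 55 pairs, the mean difference for the pair's own lists was lower than that for the other 9 lists, by a gap of −25.1 to −2.84 points. The brain pair had the largest such gap, −25.1, and cerebellum with ovary was nearly the same. Pairs that include the cerebellum took all of ranks 1 to 10, down to −13.0 with colon. For the cerebrum with a non-brain list the gap was −11.2 (ovary) to −3.59 (colon). A large gap was thus common to the pairs of the cerebellum and not particular to the brain pair.

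Each brain tissue's deficit resembled that of regions it missed without the other. Next to regions lacking the cerebellum alone, 41.0% had a cerebellum peak and 64.1% a cerebrum peak. Next to regions lacking the cerebrum alone, 66.8% had a cerebellum peak and 53.6% a cerebrum peak. Around brain-negative regions both were low together. There, 40.8% of next regions had no brain peak, against 30.1% and 24.5% around regions lacking cerebellum or cerebrum alone and 14.8% around regions common to the 11 tissues. The next region was itself brain-negative in 2.45% of cases, 0.848% next to regions lacking cerebellum alone and 0.227% next to regions of all 11 tissues.

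**Figure D5:**
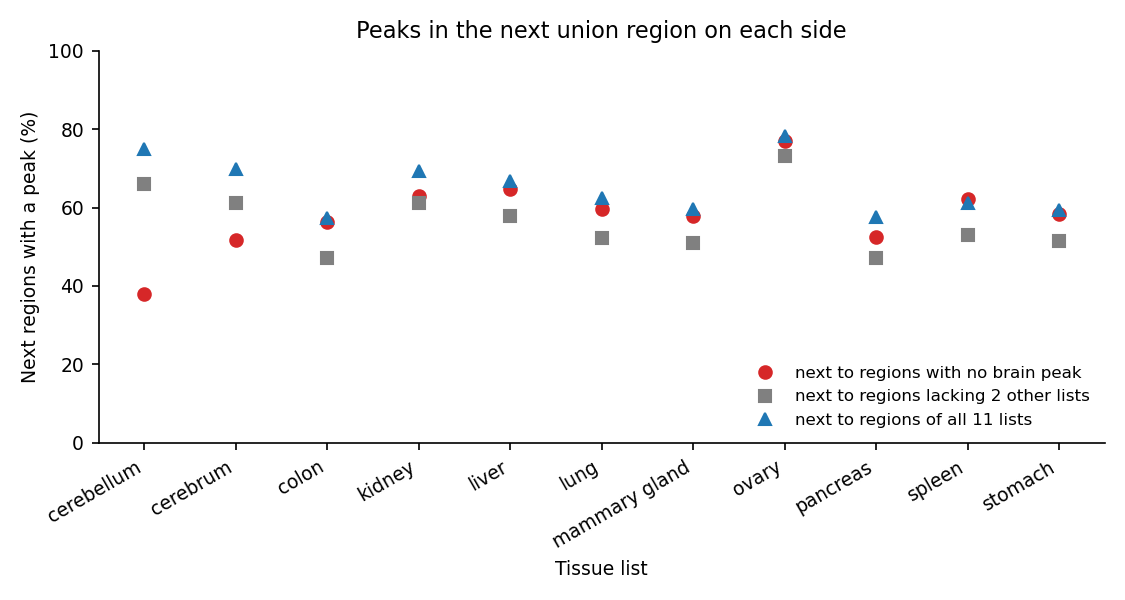
The y axis gives the percent of next union regions, on both sides, that have a peak in each of the 11 lists. Next to brain-negative regions (red) the cerebellum is at 37.9% and the cerebrum at 51.8%, below regions lacking 2 other lists (grey, 66.1% and 61.1%) and regions of all 11 lists (blue). In the 9 non-brain tissues the red points lie above the grey ones.

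Most brain-negative regions stood alone. Another one lay within 10 kb of 128 of them, or 9.81% (95% Wilson interval 8.31% to 11.5%). This share was 6.93% when peaks had to cover 50% of a region and 7.02% with no brain peak within 1 kb. With only the peaks above each list's median fold it was 5.33%, in a set made up mostly of other regions. The median gap between consecutive brain-negative regions was 650156 bases. The sets of other pairs of like size differed widely in this share: it was 10.5% for the 1338 regions lacking cerebellum and ovary and 1.83% for the 986 lacking colon and spleen. Linked at gaps of up to 10 kb, they formed 1177 single regions, 58 runs of 2 and 4 runs of 3. The runs of 3, chosen after their values were seen, lay on chromosome 6 at 39684168 to 39694030, chromosome 7 at 9973 to 16049, chromosome 14 at 42931851 to 42940182 and chromosome 15 at 3386007 to 3393703. Their mean log2 relative folds were −0.17, −0.03, −0.08 and −0.13, close to the median of all brain-negative regions, −0.16.

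In fixed windows of 1 Mb, 1453 windows held none, 447 held 1 and 3 held 7, the most of any. The window on chromosome 1 from 108000001 held 7 of the 151 regions with a peak in the 9 non-brain tissues (4.64%), the one on chromosome 2 from 34000001 held 7 of 163 (4.29%) and the one on chromosome 26 from 5000001 held 7 of 131 (5.34%). In the chromosome 2 window, the 7 regions lay between 34600923 and 34986118, and 3 of them had a mean log2 relative fold above 0 (0.36, 0.23 and 0.16). The chromosome 26 window held a close group at 5051674, 5065816 and 5069261, with mean values of −0.39, −0.54 and −0.32. In the chromosome 26 window 6 of 7 regions were below 0 and the other was at 0.19, and in the chromosome 1 window 6 of 7 were below 0 and the other was at 0.13. Such windows were picked as the fullest and are descriptions.

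Along the chromosomes, brain-negative regions were less frequent at the distal ends than regions shared by all tissues, as did regions lacking other pairs. The last 5 Mb of the autosomes, counted from the last peak, held 11.3% of them (95% Wilson interval 9.73% to 13.2%), 11.0% of regions lacking 2 other lists and 17.9% of regions with a peak in all 11 lists. The first 5 Mb held 9.89%, 9.53% and 12.1%. As a share of regions with a peak in the 9 non-brain tissues, brain-negative regions made up 0.629% in the last of 10 equal parts of a chromosome and 1.23% in part 6, the highest. By chromosome this share ran from 0.444% on chromosome 37 to 1.44% on chromosome 9, with a median of 0.918%. On chromosome 9, with 86 brain-negative regions, they numbered 1.41 per Mb, against a median of 0.536 over autosomes.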

How the data were processed

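The authors deposited 1 narrow-peak list per tissue, with no header. Genome build CanFam3.1 is named in the submitters' processing notes. The aligner, the peak caller, the filters and how the 2 MBD libraries of a tissue were combined are not given in the sources used here. The deposited signal value of each peak was read as a fold enrichment, a ratio whose control is not stated, from its place in the format. The −log10 p-value of each peak was used as deposited. Folds rank peaks within a list, so they were divided by the median of the whole list before lists were compared.

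Peaks on chromosomes 1 to 38 were merged at an overlap of at least 1 base, and the highest peak of a list stood for it in a region. The brain-negative regions and all comparisons were chosen with earlier results of these data known. An exact sign-change test over the 9 non-brain lists was planned for fold and peak width, but the rule selects on peaks in those lists, so it is not reported and all values are descriptions. Named regions were the 5 of highest mean relative fold, the 3 widest and those in the 3 fullest 1-Mb windows. The regions just inside and just outside the rule and the runs of 3 were named after their values were seen. Alternatives covered the list threshold, list size, presence, merging, brain distance and leaving out each non-brain list. The measures on next regions, the classes of strength and the comparisons with regions lacking 1 brain list were added after the data were seen. Odds ratios were pooled over classes by the Mantel-Haenszel formula. Gene lists, transcription starts and CpG content planned at the outset were not used here, since no genome or annotation of this build was at hand. The computations were tested on simulated lists, where all 1200 planted regions were recovered and a planted log2 difference of 0.30 was found as 0.302. Python 3.11.15, numpy 2.4.6, pandas 2.3.3, scipy 1.17.1 and matplotlib 3.10.9 were used.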

Additional observations from a re-analysis of the deposited data

Results flagged for a closer look

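Among 5 measures compared over the 9 non-brain lists, 1 value stood far from the others. A peak was present in ovary in 77.1% of the regions next to brain-negative ones, while kidney, liver, lung and the other non-brain tissues had 52.5% to 64.9%. The gap to the nearest list was 0.496 of the whole range, just above Dixon's 95% critical value for 9 values, which chance passes in about 1 of 20 groups. The ovary list was also the longest, with 370761 peaks, and ovary had a peak in 78.3% of the regions next to those of all 11 tissues and in 73.1% next to those lacking 2 other lists.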

How the results depend on the processing

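Keeping only peaks above the median fold of their list gave 788 regions that met the rule and a log2 odds ratio of 2.33. Their median width was 785 bases, with 5.33% within 10 kb of another and 15.2% in the last 5 Mb. The median log2 relative fold was 0.69, a sign set by removing the weaker peaks. Brain peaks below their list median count as missing in this setting. Nearly all of the 788 lie outside the 1305, of which only 11 had all 9 tissues above their list median. Equal list sizes (251352 autosomal peaks each) gave a log2 odds ratio of 2.56, a width of 459.5 bases and a log2 relative fold of −0.0066. Requiring peaks to cover 50% of a region gave a width of 353 bases and 6.93% within 10 kb. With no brain peak within 1 kb there were 812 regions, a log2 odds ratio of 3.46, a width of 358.5 bases, 7.02% within 10 kb and 8.74% in the last 5 Mb. Within 5 classes of fold, and of fold and width, the log2 odds ratio was 2.27 and 2.31. Against regions of all 11 lists the log2 differences were −0.72 for fold and −0.83 for peak width. Against regions lacking cerebellum and 1 non-brain list they were 0.031 and −0.015. The cause of these shifts was not tested.

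Leaving out each non-brain list in turn gave 1402 to 1765 regions, log2 odds ratios of 2.97 to 3.16, widths of 371 to 388 bases, log2 relative folds of −0.18 to −0.16, log2 fold differences of 0.12 to 0.18, log2 peak width differences of 0.078 to 0.14, 9.22% to 11.7% within 10 kb and 10.9% to 11.7% in the last 5 Mb. Each omission loosens the rule. The fold and width differences kept their sign under every other alternative run, namely the stricter threshold, equal sizes, coverage, merging, brain distance, each omitted list, and comparison regions lacking cerebrum and 1 other list; for fold also the mean of the peaks, and for both the comparison by width class. No paired analysis was possible because each tissue has a single list for its 2 libraries, and for the same reason no library could be left out. With 1 list per tissue and unknown depth, a missing peak cannot be told apart from a weak one.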

Other observations

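The share of regions without a brain peak fell with the number of other tissues that carried a peak. It was 55.8% of the autosomal regions found in 1 of the 9 non-brain tissues, 19.8% of those in 5, 10.4% of those in 7, 5.79% of those in 8 and 0.95% of those in 9. Beside the 1305 brain-negative regions, a further 2058 regions had no brain peak and a peak in 8 of the 9 other tissues.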
